A study of Mus musculus with 18 samples.

Results

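Snai1, Snai2, Zeb1, Zeb2, Twist1 and Twist2 encode the repressors of the Snail, Zeb and Twist families, and the data follow the level of their transcripts while mouse fibroblasts were turned into induced pluripotent stem cells (iPSC). The genes were found through the RefSeq accession of each probe set. Each of the 6 had 1 probe set, so that 6 of the 20233 genes measured are described. In RefSeq's GRCm38.p6 coordinates Snai1 lies at chr2:167538195-167542814, Snai2 at chr16:14705852-14709395, Zeb2 at chr2:44983512-45117442, Twist1 at chr12:33957671-33959831, Twist2 at chr1:91801461-91848034 and Zeb1 on chromosome 18.

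Total RNA of 9 groups had been hybridised to Affymetrix arrays, 2 arrays a group and 18 in all. The cells descend from E13.5 embryos that consist of iPSC progeny only, made by tetraploid complementation, and in every group they carry an Oct4-GFP reporter together with the Rosa26-M2rtTA transactivator. In these secondary fibroblasts doxycycline switches on the OSKM factors, which are Oct4, Klf4, Sox2 and c-Myc. Day 0 is the uninduced fibroblast at passage 4 in a serum medium. Days 1, 3, 5, 7, 11 and 15 are whole cultures in stem cell medium that held 1 µg/ml doxycycline and 50 µg/ml vitamin C, so that each comparison with day 0 also holds the change of medium and the vitamin. Day 18 is what was left 72 hours after both additives had been removed. The iPSC group is 1 established line kept in the same basal medium plus 2i, which blocks Mek and Gsk3. It was grown with or without feeder cells, usually fibroblasts, and which applies to these arrays is not given in the labels. As an established line it is not a later time point of the course. Comparisons with it also hold the 2i, and those of days 1 to 15 the doxycycline and vitamin C as well.

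Snail proteins are zinc finger factors that bind an E-box, the motif CAGGTG or its reverse complement CACCTG, in the promoter of E-cadherin and other epithelial genes and recruit corepressors there. Zeb proteins carry a cluster of zinc fingers at each end and bind the same kind of motif. Twist proteins are basic helix-loop-helix (bHLH) factors that pair with E proteins and bind the broader motif CANNTG. All of them are known for driving the epithelial to mesenchymal transition, and fibroblasts pass through the reverse transition when they are reprogrammed.

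The motif was looked for in promoters of epithelial genes. RefSeq promoter windows (GRCm38.p6, from 250 bases before to 50 bases after the start site, 300 in all) were matched by symbol for 21 genes of a list of 36 epithelial genes and for 4 of the 6 repressor genes. CAGGTG or CACCTG was held by a window of 18 of the 21 epithelial genes (85.7%), against 22.6% of 27025 genes and 20.2% of 32851 windows. In a list of 30 mesenchymal genes, 17 had a window and 2 held the motif (11.8%). CANNTG, which includes CAGGTG, was found in 72.3% of all windows, for 75.0% of all genes, 90.5% of the epithelial and 64.7% of the mesenchymal genes. Of the repressor genes with a window, Snai1 alone held CAGGTG or CACCTG, once, 126 bases before its start. A match is a run of letters and not a binding site, and the list was drawn up from genes known as epithelial, several of them as targets of these factors. The 5 windows shown are the promoter of Snai1 and those of 4 epithelial genes, chosen after their values had been seen. Crb3, Lsr and Ap1m2 have 4 matches, and Epcam has 2, as do other genes of the list. Capitals mark CAGGTG and CACCTG.

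The window of Snai1 lies at chr2:167537945-167538244 on the plus strand.
Snai1: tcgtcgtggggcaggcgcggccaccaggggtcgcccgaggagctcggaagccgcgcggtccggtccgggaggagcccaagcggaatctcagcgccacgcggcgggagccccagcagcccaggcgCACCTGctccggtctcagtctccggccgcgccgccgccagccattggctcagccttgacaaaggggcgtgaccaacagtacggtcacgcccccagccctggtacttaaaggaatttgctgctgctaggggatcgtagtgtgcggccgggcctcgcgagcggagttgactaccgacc
Epcam encodes an adhesion molecule of epithelial and pluripotent cells, and its window lies at chr17:87635729-87636028 on the plus strand, with matches 187 and 19 bases before the start.
Epcam: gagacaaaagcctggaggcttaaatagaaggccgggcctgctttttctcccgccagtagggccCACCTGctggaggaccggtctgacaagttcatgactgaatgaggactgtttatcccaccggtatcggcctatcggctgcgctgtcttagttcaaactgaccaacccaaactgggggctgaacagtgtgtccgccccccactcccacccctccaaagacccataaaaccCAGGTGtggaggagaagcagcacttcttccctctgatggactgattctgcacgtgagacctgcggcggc
Crb3 encodes a subunit of the apical Crumbs complex, and the first of its 2 windows lies at chr17:57061951-57062250 on the plus strand.
Crb3: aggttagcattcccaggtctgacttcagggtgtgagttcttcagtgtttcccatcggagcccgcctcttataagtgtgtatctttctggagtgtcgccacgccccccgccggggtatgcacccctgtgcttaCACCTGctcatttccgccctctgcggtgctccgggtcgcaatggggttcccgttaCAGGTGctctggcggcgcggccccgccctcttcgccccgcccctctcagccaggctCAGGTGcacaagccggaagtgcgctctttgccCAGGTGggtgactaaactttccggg
Lsr encodes a component of tricellular junctions, and its window lies at chr7:30973420-30973719 on the minus strand.
Lsr: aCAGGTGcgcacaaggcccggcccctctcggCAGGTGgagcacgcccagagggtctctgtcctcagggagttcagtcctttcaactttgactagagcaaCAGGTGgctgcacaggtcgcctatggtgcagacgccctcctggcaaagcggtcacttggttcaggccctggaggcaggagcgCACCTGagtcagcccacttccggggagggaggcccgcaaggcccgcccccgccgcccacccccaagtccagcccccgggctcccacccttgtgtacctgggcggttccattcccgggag
Ap1m2 encodes a subunit of the epithelial clathrin adaptor that sorts proteins to the basolateral membrane, and its window lies at chr9:21312284-21312583 on the minus strand, with matches 81, 51, 21 and 9 bases before the start.
Ap1m2: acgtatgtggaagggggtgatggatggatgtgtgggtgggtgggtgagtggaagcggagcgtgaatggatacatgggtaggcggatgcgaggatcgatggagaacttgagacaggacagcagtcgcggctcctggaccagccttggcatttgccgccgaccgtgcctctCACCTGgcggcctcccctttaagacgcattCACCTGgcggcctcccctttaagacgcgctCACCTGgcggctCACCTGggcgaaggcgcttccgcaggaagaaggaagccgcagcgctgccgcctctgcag

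MicroRNAs of the miR-200 family bind the transcripts of Zeb1 and Zeb2 and lower their output, and the Zeb proteins in turn repress the miR-200 genes. Their mature 3p forms are printed in 5′ to 3′ direction with the seed, bases 2 to 8, in capitals. The first 3 share the seed AAUACUG and the next 2 the seed AACACUG, which differ at a single base.
mmu-miR-200b-3p: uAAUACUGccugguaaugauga
mmu-miR-200c-3p: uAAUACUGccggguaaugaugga
mmu-miR-429-3p: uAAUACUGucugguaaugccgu
mmu-miR-200a-3p: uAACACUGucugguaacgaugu
mmu-miR-141-3p: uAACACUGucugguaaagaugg
The pair below is cut from Dnm3os, a long RNA that Twist1 is known to activate, and its host transcript appears among the results.
mmu-miR-214-3p: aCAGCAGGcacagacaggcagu
mmu-miR-199a-5p: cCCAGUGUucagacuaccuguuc

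Values are RMA levels on the log2 scale, on which 1 unit is a 2-fold difference, and levels of different probe sets are not compared. A level of 5.32, the 95th percentile of 1075 olfactory receptor genes that are mostly silent outside the nose, served as background. In 54 of 54 combinations of gene and group both arrays were above it. A gene was called where limma's Benjamini-Hochberg adjusted p over the 20233 genes of a comparison was under 0.05 and its log2 difference was 1 or more in either direction. Nothing says that the arrays of a group came from separate cultures, so p-values measure the spread between arrays, which may be technical.

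The labels were checked against marker lists. The 10 fibroblast markers averaged 11.30 and 11.31 on the day 0 arrays, and 10 pluripotency markers averaged 11.14 and 11.09 on the iPSC arrays against 4.96 and 4.93 on day 0. The fibroblast list also averaged 9.53 and 9.36 on the iPSC arrays, so that these RNA samples hold fibroblast transcripts. Between the arrays of a group r over genes was 0.997 to 0.998, but 0.993 on day 18, where 264 genes differed by over 2-fold against 5 to 16 elsewhere. The Y-linked gene Uty stood at 5.98 and 5.61 on day 0, 8.33 and 8.21 on day 5, 5.34 and 5.23 on day 7 and 9.01 and 8.89 on day 18, so the cultures differed between groups in a way that arrays of a group shared. Its part in the results below was not tested. The cultures are bulk samples, in which fewer cells of a type and less RNA per cell cannot be told apart.

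Against day 0, the repressor genes were lower in every later group on average. Of 48 tests (6 genes in 8 comparisons), 41 were called lower and 0 higher. On day 1, 3 of the 6 were called lower, where 6.54% of the 20233 genes were. Then 4 were called by day 3 (8.94% of genes), and 5 both on day 5 (9.75%) and on day 7 (9.85%). All 6 were called lower on day 11 (9.64%) and day 15 (8.83%), and again after withdrawal on day 18 (8.64%) and in the iPSC line (9.79%). The median difference of the 6 went from -1.04 on day 1 to -3.01 on day 15 and was -2.17 in iPSC, whereas the median of all genes lay between -0.03 and 0.13. It was 0.11 on day 3 and 0.13 on day 5.

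**Figure D1:**
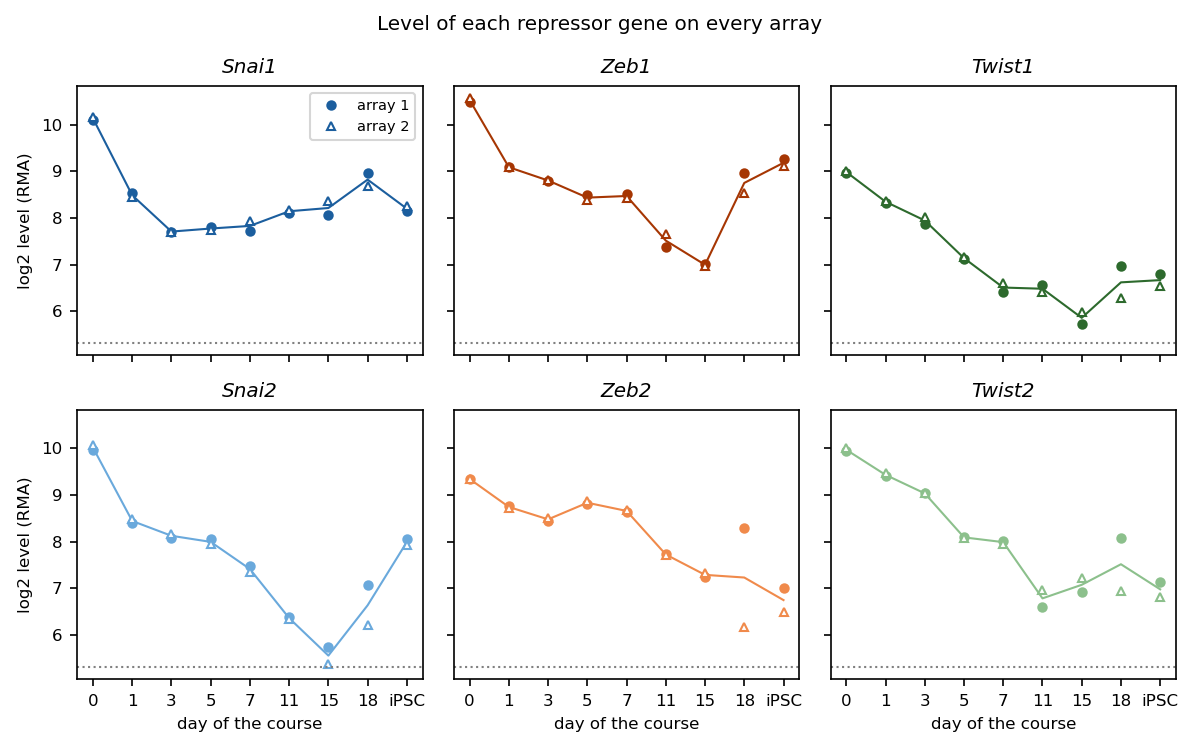
Log2 level (RMA, vertical axis) of the 6 repressor genes on every array, against the group (horizontal axis, evenly spaced and not to time). Circles are array 1, triangles array 2, lines join the group means, and the dotted line is the background of 5.32. Snai1 is lowest on day 3, Snai2, Zeb1 and Twist1 on day 15, Twist2 on day 11 and Zeb2 in iPSC, and the day 18 arrays lie far apart for Zeb2.

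Snai1 encodes the founding Snail protein of the mouse and was among the 3 members called lower on day 1. Its level was 10.10 and 10.17 on day 0, 8.53 and 8.45 on day 1, and 7.71 and 7.71 on day 3. It was 7.80 and 7.75 on day 5, 7.73 and 7.93 on day 7, 8.12 and 8.18 on day 11, and 8.07 and 8.36 on day 15. The day 18 arrays gave 8.96 and 8.69, and the iPSC arrays 8.14 and 8.26. Both day 0 arrays stood above all other arrays, and no later group came back to them. By day 1 Snai1 had fallen by 1.65 ± 0.11 (SE; 3.13-fold, adjusted p = 1.23e-08), which is 67.9% of its whole fall to day 3. On day 3 it had fallen by 2.43 ± 0.11 (5.37-fold, adjusted p = 2.15e-10). From day 3 to day 18 each mean was above the one before, in steps that were not called. In the order of its levels, day 15, iPSC and day 11 overlapped, as did day 7 and day 5.

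Snai2 encodes Slug, the other widely expressed Snail protein, which marks neural crest and mesenchyme. Its level was 9.96 and 10.07 on day 0, 8.40 and 8.49 on day 1, 8.09 and 8.17 on day 3, and 8.05 and 7.94 on day 5. It went on to 7.49 and 7.35 on day 7, 6.39 and 6.34 on day 11, and 5.75 and 5.37 on day 15, just above background. It was 7.07 and 6.21 on day 18 and 8.06 and 7.93 in iPSC. Snai2 thus fell early and late, with 35.3% of the fall reached by day 1 and 58.4% by day 7. On day 1 it had fallen by 1.57 ± 0.20 (2.97-fold, adjusted p = 9.64e-06), and on day 15 by 4.46 ± 0.20 (22.0-fold, adjusted p = 1.67e-10). In iPSC the fall was 4.06-fold, and its iPSC arrays overlapped those of day 5.

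Zeb1 encodes the Zeb factor best known for repression of E-cadherin and of the miR-200 genes. Its level was 10.49 and 10.57 on day 0, 9.09 and 9.09 on day 1, 8.79 and 8.82 on day 3, and 8.49 and 8.39 on day 5. The arrays of day 7 gave 8.53 and 8.42, those of day 11 gave 7.38 and 7.65, and those of day 15 gave 7.02 and 6.98. Its level was 8.98 and 8.53 on day 18, and 9.26 and 9.11 in iPSC. Its means went down from day 0 to day 5, with no overlap of arrays, stood close together on days 5 and 7, were lower on days 11 and 15 and higher after that. On day 1 Zeb1 fell by 1.44 ± 0.12 (adjusted p = 1.85e-07). On day 15 it fell by 3.53 ± 0.12 (11.6-fold, adjusted p = 1.63e-11). In iPSC it was 2.54-fold under day 0 (adjusted p = 2.78e-07), and its iPSC and day 1 means differed by 0.09 (adjusted p = 0.565).

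Zeb2 encodes Sip1, a Smad-binding factor that is also expressed in macrophages and other blood cells. Its level was 9.35 and 9.34 on day 0, 8.76 and 8.73 on day 1, 8.44 and 8.52 on day 3, 8.80 and 8.87 on day 5, and 8.63 and 8.69 on day 7. It was 7.74 and 7.71 on day 11, 7.24 and 7.34 on day 15, 8.29 and 6.18 on day 18, and 7.01 and 6.49 in iPSC. From day 1 to day 7 all arrays were under those of day 0 but by less than 1 log2, and only 26.4% of the fall to iPSC had been reached by day 7. Zeb2 was called lower from day 11, where it had fallen by 1.62 ± 0.43 (3.07-fold, adjusted p = 0.00469). In iPSC it had fallen by 2.60 ± 0.43 (6.05-fold, adjusted p = 0.0001). Its day 18 arrays differed by 2.11 and set this SE: without the day 18 arrays the SE is 0.12 and the adjusted p of day 1 goes from 0.286 to 0.000714, although the difference of -0.60 stays under the limit. Macrophage and blood markers (9 genes) averaged 7.30 and 7.15 on day 0, 7.30 and 7.47 on day 1, 6.49 and 6.50 on day 3, 5.62 and 5.66 on day 7, and 5.25 and 5.25 on day 11. Ptprc, Adgre1 and Itgam were under background from day 7 on, Csf1r and Laptm5 in no group, and 6 of the 9 were called lower on day 15 (8.83% of all genes). On the 2 day 18 arrays this list averaged 5.47 and 5.63. Whether such cells contribute to Zeb2 was not tested.

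Twist1 encodes a bHLH factor of head and limb mesenchyme. Its level was 8.97 and 9.01 on day 0, 8.33 and 8.37 on day 1, 7.87 and 8.03 on day 3, and 7.12 and 7.16 on day 5. It was 6.42 and 6.60 on day 7, 6.57 and 6.41 on day 11, 5.73 and 5.99 on day 15, 6.97 and 6.28 on day 18, and 6.80 and 6.54 in iPSC. Twist1 went down over the first week without a large first step, with 20.4% of the fall by day 1 and 79.2% by day 7. It was called on day 3 at a fall by 1.04 ± 0.17 (adjusted p = 0.000106), just past the limit, and this call is lost with median centring of the arrays and without day 3 array 1 (-0.96 in both). On day 15 it had fallen by 3.13 ± 0.17 (8.72-fold, adjusted p = 1.32e-09).

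Twist2, also called Dermo1, encodes the close relative of Twist1 in dermal and limb mesenchyme. Its level was 9.94 and 10.01 on day 0, 9.40 and 9.47 on day 1, 9.04 and 9.03 on day 3, 8.11 and 8.08 on day 5, and 8.03 and 7.96 on day 7. It was 6.61 and 6.97 on day 11, 6.93 and 7.23 on day 15, 8.08 and 6.95 on day 18, and 7.14 and 6.82 in iPSC. Neighbours in the order of its levels overlapped from day 7 down to day 18, day 15, iPSC and day 11, and the arrays of days 0 to 7 lay apart from each other. Twist2 was first called on day 5, when it fell by 1.88 ± 0.25 (3.67-fold, adjusted p = 1.54e-05). On day 11 it had fallen by 3.18 ± 0.25 (9.09-fold, adjusted p = 6.26e-08). The day 3 difference of -0.93 lay just under the limit, and with another quantile normalization it was called at -1.02.

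**Figure D2:**
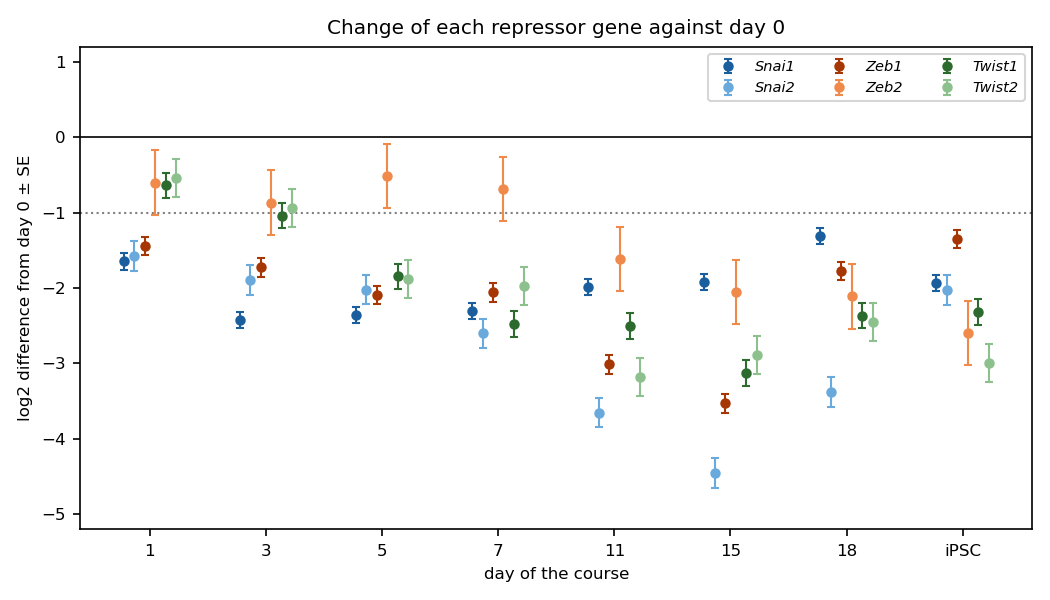
Log2 difference of each repressor gene from day 0 (vertical axis, limma estimate ± SE from 18 arrays) in each later group (horizontal axis). The dotted line at -1 is the limit for a call. Snai1, Snai2 and Zeb1 pass it on day 1, Zeb2 first on day 11, and Snai2 reaches -4.46 on day 15.

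Neighbouring groups show when the steps fell. Apart from day 1 against day 0, with the 3 falls given above, 0 of the 6 genes were called lower from day 1 to day 3 (2.31% of all genes), from day 3 to day 5 (0.361%), from day 5 to day 7 (0.386%) and from day 11 to day 15 (0.247%). At an unadjusted p under 0.05 the counts in either direction were 3, 3, 2 and 3 genes. From day 3 to day 5 Twist2 differed by -0.94 and Twist1 by -0.81, and from day 11 to day 15 Snai2 differed by -0.80. From day 7 to day 11, 1.23% of genes were called lower, and so were 2 of the 6: Twist2 fell by 1.21 ± 0.25 (adjusted p = 0.00279) and Snai2 by 1.05 ± 0.20 (adjusted p = 0.00128). Zeb1 differed by -0.96 over this interval, just under the limit, and Snai1 by 0.31. Zeb2 differed by -0.93 ± 0.43 and did not pass the test (adjusted p = 0.136), although its arrays did not overlap. Its SE was set by the day 18 arrays, as given above, which have no part in this interval. Twist1 differed by -0.03 with overlapping arrays and did not pass either.

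Paralogs of a family were compared as the log2 ratio within each array, given as its change from day 0 with a 95% interval. For Snai1 over Snai2 the change was -0.07 on day 1 (-0.61 to 0.46) and -0.54 on day 3 (-1.07 to -0.00), where Snai1 was the further down. It was 0.30 on day 7 (-0.24 to 0.83), 1.66 on day 11 (1.13 to 2.20), 2.54 on day 15 (2.00 to 3.07) and 2.07 on day 18 (1.53 to 2.60). Snai2 had therefore fallen further than Snai1 by day 11, and in iPSC the change was 0.09 (-0.45 to 0.62). Leaving out 1 day 15 array at a time gave 2.21 and 2.87 for day 15. For Zeb1 over Zeb2 the change was -0.84 on day 1 (-1.78 to 0.10) and -0.86 on day 3 (-1.80 to 0.08). It was -1.58 on day 5 (-2.52 to -0.64) and -1.48 on day 15 (-2.41 to -0.54), with Zeb1 further down, and 1.25 in iPSC (0.31 to 2.19), with Zeb2 further down. The width of the Zeb intervals comes from a spread shared by all groups, which includes the day 18 arrays of Zeb2 that differed by 2.11. For Twist1 over Twist2 it was -0.50 on day 7 (-0.90 to -0.10), 0.68 on day 11 (0.28 to 1.08), -0.23 on day 15 (-0.63 to 0.17) and 0.67 in iPSC (0.27 to 1.08). In the Zeb and Twist pairs the sign of the change turned between groups whose intervals exclude 0. For the Snail pair the negative side rests on day 3 alone, whose interval only just excludes 0. The intervals were not adjusted for their number. The changes reached 2.54 in size for the Snail pair and -1.58 for the Zeb pair, and those of the Twist pair lay between -0.50 and 0.68.

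**Figure D3:**
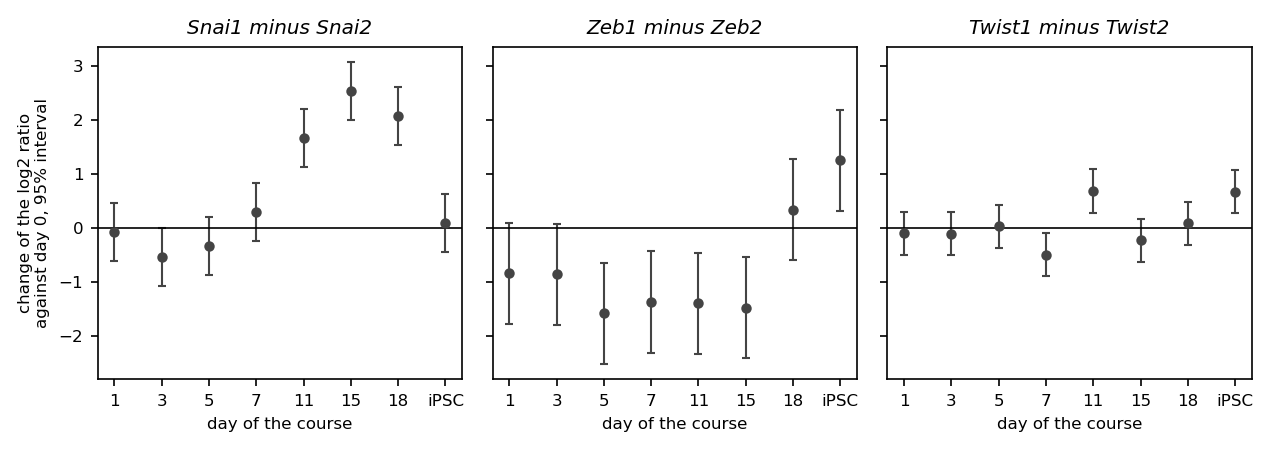
Change of the within-array log2 ratio of each paralog pair from day 0 (vertical axis) by group (horizontal axis), with 95% intervals from a model of 9 group means on 18 arrays. Snai1 over Snai2 rises to 2.54 on day 15 and is 0.09 in iPSC, and Zeb1 over Zeb2 is -1.48 on day 15 and 1.25 in iPSC.

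After withdrawal, Zeb1 and Snai2 came back. From day 15 to day 18, 2 of the 6 were called higher, where 4.67% of genes were: Zeb1 rose by 1.75 ± 0.12 (3.38-fold, adjusted p = 5.88e-08) and Snai2 by 1.08 ± 0.20 (adjusted p = 0.00043). Snai1 (0.61) and Twist1 (0.76) lay above day 15 on both day 18 arrays but under the limit, and for Zeb2 and Twist2 the day 18 arrays overlapped those of day 15. Array 1 was the higher one for each of the 6, by 0.28 for Snai1, 0.86 for Snai2, 0.44 for Zeb1, 2.11 for Zeb2, 0.69 for Twist1 and 1.13 for Twist2. Without array 1 Zeb1 still rose by 1.53, Snai2 rose by 0.65 and was not called, and Zeb2 was called lower at -1.11. Without array 2 Zeb1 rose by 1.98, Snai2 by 1.51, Twist1 by 1.11 and Twist2 by 1.01, and Zeb2 was not called at 1.00. The direction of Zeb2 on day 18 therefore depends on the array. The fibroblast list averaged 8.96 on array 1 and 8.12 on array 2, against 6.86 and 6.84 on day 15.

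From day 18 to iPSC, Snai2 was the 1 gene called higher, by 1.36 ± 0.20 (adjusted p = 0.000104), where 1.57% of all genes were. Without day 18 array 2 it rose by 0.93 and was not called, and Zeb2 and Twist2 were called lower at -1.54 and -1.10. Earlier groups were also set against iPSC directly. On day 1, Twist1, Twist2 and Zeb2 were called higher than in iPSC (7.73% of genes), as on day 3 (6.34%), and on day 5 (6.42%) and day 7 (6.5%) Twist2 and Zeb2 were. On day 11 (6.25%) and day 15 (5.52%) Snai2 and Zeb1 were called lower than in iPSC. On day 15 Snai2 was 5.41-fold lower (-2.44 ± 0.20, adjusted p = 1.78e-07) and Zeb1 4.55-fold lower (-2.19 ± 0.12, adjusted p = 4.34e-09). The iPSC level lay above the lowest group by a share of the fall to that group. This share was 61.9% for Zeb1, 54.6% for Snai2, 25.9% for Twist1, 20.2% for Snai1 and 6.09% for Twist2, whereas Zeb2 was lowest in iPSC. As iPSC is a separate line in 2i, these shares are not a recovery of the cultures over time.

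Fibroblast transcripts were also higher in iPSC and on day 18 than on day 15. Of the 10 fibroblast markers, 9 were called higher in iPSC than on day 15 (5.52% of all genes), with a median difference of 2.56. On day 18, 8 were called higher than on day 15 (4.67%). The list's array means of 9.53 and 9.36 in iPSC compare with 6.86 and 6.84 on day 15. Lum, which encodes lumican, was under background from day 1 to day 18 and above it on day 0 and in iPSC, and the other 9 markers were above background in every group. Of 7 smooth or skeletal muscle markers, 5 were called higher in iPSC than on day 15 (5.52% of all genes). Of the 10 fibroblast markers 8 are also in the list of mesenchymal effectors used below. The part of these transcripts in the higher Snai2 and Zeb1 of iPSC was not tested.

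**Figure D4:**
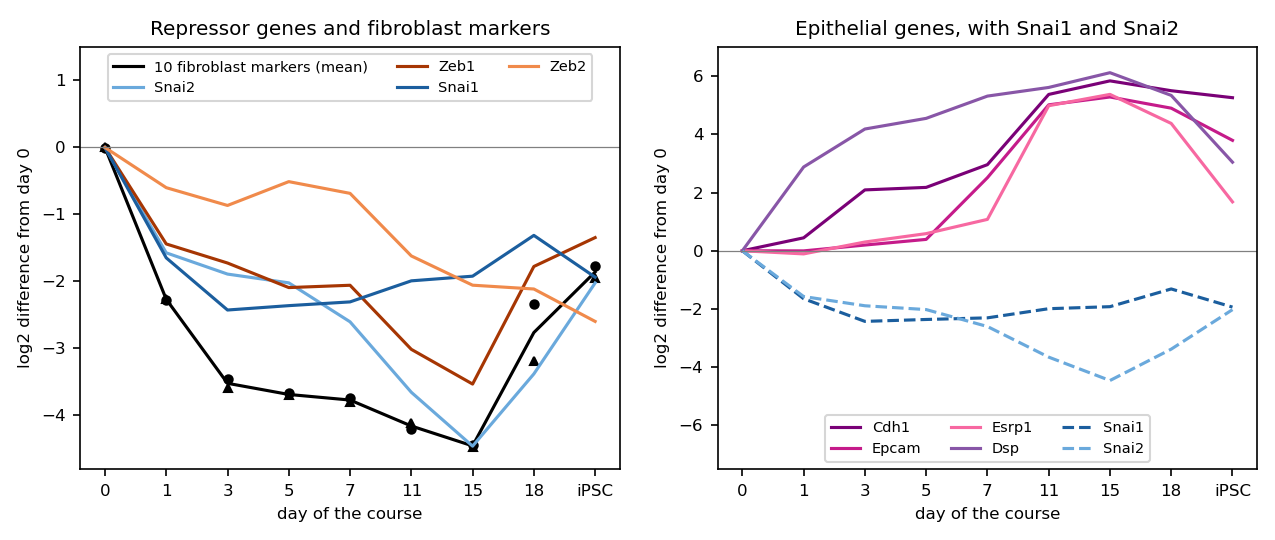
Left, log2 difference of group means from day 0 (vertical axis) for Snai1, Snai2, Zeb1, Zeb2 and the mean of 10 fibroblast markers, by group (horizontal axis); circles and triangles are the fibroblast mean on arrays 1 and 2. Right, the same for 4 epithelial genes with Snai1 and Snai2 dashed. The fibroblast mean, Snai2 and Zeb1 are lowest on day 15 and higher in iPSC, and the epithelial genes are highest on day 15.

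Epithelial genes rose while the repressors were low, but most of them later than Snai1 fell. On day 1, 5 of the 35 epithelial genes on the array were called higher, where 7.62% of all genes were. They were Dsp, St14, Esrp2, Krt19 and F11r, listed for their calls, with Dsp (desmoplakin) up by 2.88 from a day 0 level under background, which makes this a lower bound. Of these, Krt19 and F11r were not called on day 3. The number called higher was 6 on day 3 (8.68% of all genes), 12 on day 5 (9.5%) and 14 on day 7 (10.1%). It reached 31 on day 11 (9.89%) and 34 on day 15, where 10% of all genes were called higher. The list's median difference was 0.14 on day 1, 0.90 on day 7 and 3.27 on day 15. The 1 gene called lower on day 15 was Cdh3 (P-cadherin, -1.83), which had also been called lower on day 3 (-2.35). In iPSC 18 of the 35 were called higher than on day 0 (10.1% of all genes), and 27 were called lower than on day 15 (5.48%).

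Cdh1 encodes E-cadherin, the textbook target of Snail and Zeb repression. Its level was 5.09 and 5.17 on day 0, 5.61 and 5.54 on day 1, 7.21 and 7.23 on day 3, 7.41 and 7.20 on day 5, and 8.06 and 8.11 on day 7. It then reached 10.52 and 10.48 on day 11 and 10.99 and 10.94 on day 15, and was 10.36 and 10.41 in iPSC. Its larger steps up came between days 1 and 3, after Snai1, Snai2 and Zeb1 had been called lower on day 1, and between days 7 and 11. Over days 7 to 11 Snai2 and Twist2 were called lower. Zeb1 (-0.96), Zeb2 (-0.93), Twist1 (-0.03) and Snai1 (0.31) were not called over that interval. Whether these are linked was not tested. On day 15 it had risen by 5.84 ± 0.08 (adjusted p = 1.15e-14) from a level under background, so this is a lower bound. Epcam, whose promoter is printed above, was 4.74 and 4.89 on day 0, 5.51 and 4.90 on day 5, 7.33 and 7.32 on day 7 and 10.09 and 10.10 on day 15. Esrp1, an epithelial splicing regulator, was 5.40 and 5.23 on day 7, 9.17 and 9.26 on day 11, and 5.81 and 6.02 in iPSC. Krt8, a simple epithelial keratin, rose by 2.86 ± 0.14 on day 3 and by 5.62 ± 0.14 on day 15, and its 7.00 and 7.33 in iPSC lay near the 6.90 and 6.58 of day 0. Of the other genes with a printed promoter, Ap1m2 was 5.73 and 5.86 on day 7 and 8.58 and 8.72 on day 11. Lsr went from 6.59 and 6.74 to 8.24 and 8.36 and Crb3 from 6.14 and 6.10 to 7.41 and 7.52 over the same interval, so both arrays of day 11 were above those of day 7 for all 3.

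Grhl2, Ovol1 and Ovol2 encode epithelial factors that repress Zeb genes. Grhl2 was 4.92 and 4.94 on day 7, under background, and 7.41 and 7.52 on day 15, a rise by 3.08 ± 0.10 against day 0 (adjusted p = 9.48e-12) that is a lower bound, as day 0 was under background, and was at background in iPSC with 5.17 and 5.34. Ovol1 was 6.09 and 6.09 on day 15 against 5.03 and 5.02 on day 0, and 5.02 and 4.55 in iPSC. Its day 0 and iPSC arrays were under background, so these differences are lower bounds. Ovol2 was 5.90 and 6.03 on day 0 and 7.06 and 7.11 on day 15. In iPSC Ovol2 was 6.57 and 6.67, and its difference from day 15 was not called.

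Mesenchymal genes fell with the repressors. Of 29 on the array, 10 were called lower on day 1 (6.54% of all genes), 24 on day 3 (8.94%) and 27 on day 15 (8.83%), and 0 higher. The median difference was -0.60 on day 1 and -3.38 on day 15. Cdh11, a mesenchymal cadherin, fell by 5.83 ± 0.23 on day 15, Lox (lysyl oxidase) by 5.42 ± 0.16, Col1a2 by 5.07 ± 0.18 and Postn (periostin) by 4.86 ± 0.20. Cdh2 (N-cadherin) was 10.47 and 10.52 on day 0, 10.71 and 10.83 on day 1, 7.57 and 7.64 on day 15, and 7.63 and 7.32 in iPSC. Unlike Snai2, its mean was no higher in iPSC than on day 15. Vim (vimentin) stayed at 12.55 and 12.51 on day 15 against 12.87 and 12.98 on day 0, and was not called in any group. In iPSC 20 of the 29 were called higher than on day 15 (5.52% of all genes).

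**Figure D5:**
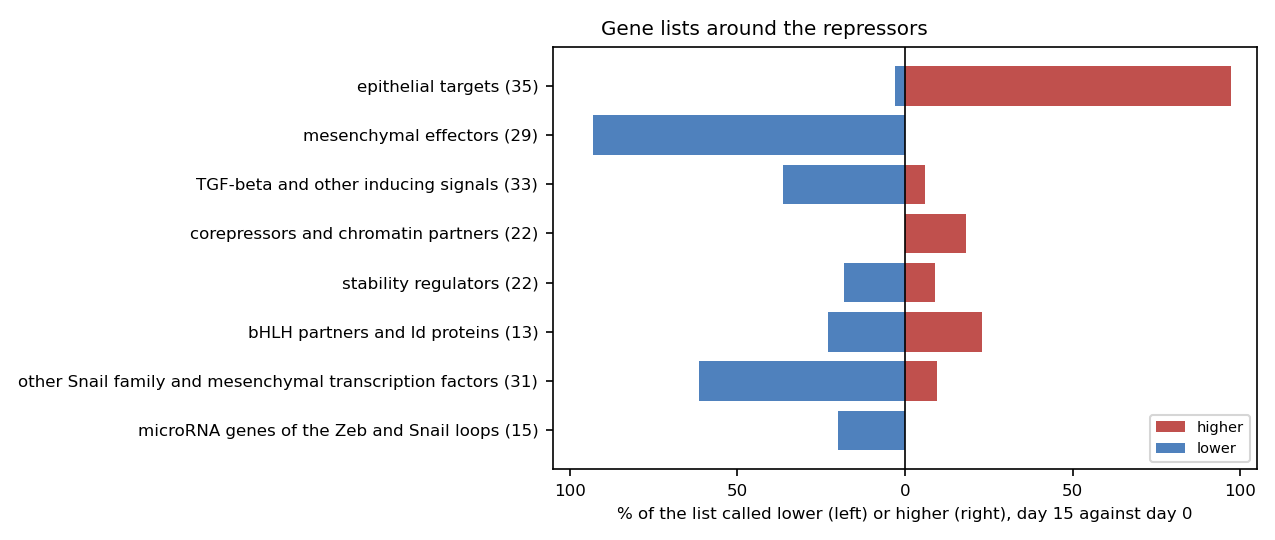
Share of each gene list called higher (right) or lower (left) on day 15 against day 0, in percent of the genes on the array, whose number is in parentheses. Of the epithelial list 34 of 35 were called higher and of the mesenchymal list 27 of 29 lower, beside 10% of all genes called higher and 8.83% lower.

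The list of inducing signals holds transforming growth factor beta (TGF-beta), Notch, Wnt and related pathway genes. It also holds the pathway inhibitors Smad6, Smad7, Ski and Skil and the Id genes, so its counts are not those of inducers alone. Of its 33 genes, 12 were called lower on day 15 (8.83% of all genes) and 2 higher (10%), with a median of -0.60. The ligand gene Tgfb3 was 11.30 and 11.26 on day 0, 9.23 and 9.28 on day 1, 6.90 and 7.03 on day 15, 9.37 and 8.22 on day 18 and 10.04 and 9.95 in iPSC. It was among the 5 genes most like Zeb1 over the groups. The receptor gene Tgfbr2 was 10.75 and 10.72 on day 0, 9.18 and 9.07 on day 1 and 8.34 and 8.41 on day 15, and at 7.81 and 7.46 it was lowest in iPSC. Tgfbr3, a coreceptor, fell by 3.06 ± 0.12 and Bmp4 by 2.48 ± 0.11 on day 15. The genes called higher were Id1 (1.03) and Id2 (1.21), targets of BMP signalling that encode inhibitors of bHLH factors.

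Partners of Twist were listed next. Of 13 bHLH and Id genes, which include 4 Id genes also in the list above, 3 were called lower (8.83% of all genes) and 3 higher (10%) on day 15. The E proteins Tcf3, Tcf4 and Tcf12 had differing courses: Tcf4 was 10.66 and 10.59 on day 0, 9.23 and 9.30 on day 3 and 9.42 and 9.57 on day 15, while Tcf3 was 9.63 and 9.59 and then 9.70 and 9.78 on day 15. Id2 was 9.97 and 9.92 on day 0, 11.12 and 11.20 on day 15 and 9.80 and 9.79 in iPSC. Id3 fell by 1.43 ± 0.36 on day 15, with day 18 arrays at 9.10 and 7.30. Scx, a bHLH gene of tendon, fell by 2.42 ± 0.16, and Hand1 rose by 1.45 ± 0.17.

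Corepressors through which Snail and Zeb proteins act stayed present. Of 22 genes, 4 were called higher on day 15 (10% of all genes) and 0 lower (8.83%), with a median of 0.27. They were Ezh2 (1.31), Suz12 (1.18) and Eed (1.03) of Polycomb repressive complex 2 and Suv39h1 (1.04), and 2 were called with median centring or another quantile normalization. Kdm1a, the demethylase recruited by Snai1, was 9.82 and 9.80 on day 0 and 10.41 and 10.40 on day 15. Ctbp1, a corepressor of Zeb proteins, was 10.17 and 10.15 on day 0, 9.95 and 10.05 on day 15 and 9.35 and 9.17 in iPSC. Ctbp2 went the other way, from 9.97 and 9.88 to 10.58 and 10.60 and then 10.78 and 10.63.

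A list drawn up around the stability of Snail proteins was counted as well. Pdk1 in it encodes a pyruvate dehydrogenase kinase, a metabolic enzyme, and whether the other genes act on Snail proteins here was not tested. Of its 22 genes, 2 were called higher on day 15 (Pdk1 1.70, Siah1b 1.49) and 4 lower, where 10% of all genes were called higher and 8.83% lower. Prkd1, a kinase that phosphorylates Snai1, was 8.25 and 8.11 on day 0, 7.95 and 8.01 on day 7, 6.19 and 5.94 on day 11 and 5.20 and 5.10 on day 15. The day 15 arrays of Prkd1 were under background, so its fall is a lower bound. Pak1 fell by 1.38 ± 0.11, and Lats2 (-1.09) and Ctdsp2 (-1.05) are named for their calls.

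Other mesenchymal transcription factors fell with the 6 genes. Of 31, 19 were called lower on day 15 (8.83% of all genes) and 3 higher (10%), with a median of -1.52. Prrx1, itself an inducer of the mesenchymal state, was 11.77 and 11.79 on day 0, 9.87 and 9.88 on day 1, 9.74 and 9.68 on day 11, 7.79 and 7.86 on day 15, and 10.35 and 10.09 in iPSC. Like Zeb1 it was lower by day 1, lowest on day 15 and higher again in iPSC. Osr1 fell by 5.06 ± 0.13, with 1 of its day 15 arrays under background. Tbx5 fell by 3.83 ± 0.10 to a level under background, so this is a lower bound. Snai3, the remaining Snail gene, was 4.93 and 5.07 on day 0 and under background, and 5.96 and 6.10 on day 15, a rise by 1.02 that is a lower bound. Tead4 (2.48) and Klf8 (2.06) were the others called higher.

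Probe sets for microRNA genes gave a divided picture. Dnm3os, host of miR-214 and miR-199a printed above, was 8.97 and 8.63 on day 0 and 5.07 and 5.14 on day 1. It had fallen by at least 3.70 ± 0.16 on day 1 (adjusted p = 2.63e-10), as its later level was under background. The hairpin probe set of Mir214 was 10.16 and 10.02 on day 0, 6.13 and 6.39 on day 1 and 5.80 and 6.17 on day 15. That of Mir199a-2 was 6.41 and 6.81 on day 0 and 3.40 and 3.42 on day 1. The 3 host and hairpin probe sets thus fell in the first day, when Twist1 had differed by -0.64. Of the miR-200 family, Mir200b, Mir200c, Mir141 and Mir429 were under background in every group, at 4.13 and 4.36, 4.43 and 4.30, 3.92 and 3.87 and 2.94 and 2.93 on day 15, and Mir200a was near it at 5.57 and 5.30. These hairpin probe sets were hybridised with labelled total RNA, and whether they report mature microRNA was not tested, so no course of miR-200 can be given. Of 15 microRNA genes, 3 were called lower on day 15 (8.83% of all genes) and 0 higher (10%). Those called are Dnm3os and the hairpins cut from it, so they do not count as separate genes. Only 5 of the 15 had a group mean above background.

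Likeness was measured by Pearson's r over the 9 group means, among 8207 genes with a named symbol and a range of at least 1 log2. It is a description over means that share arrays. For Zeb2 the day 18 mean of 7.23 comes from arrays at 8.29 and 6.18, and r without day 18 was not computed. Among the members, Twist1 and Twist2 (0.94), Snai2 and Zeb1 (0.93) and Snai2 and Twist1 (0.90) were most alike, and Snai1 and Zeb2 least (0.25). Snai1 was closer to Zeb1 (0.65) than to its paralog Snai2 (0.50), and Zeb1 and Zeb2 gave 0.47. The 5 genes most like Snai1 were Snn, Zfyve16, Cx3cl1, Col6a1 and Clec2d (0.98 to 0.99). Those most like Snai2 were Prkg1, Dcn, Arhgap24, St3gal2 and Nexn (0.97 to 0.99), of which Dcn encodes the matrix proteoglycan decorin. Those most like Zeb1 were Layn, Slc39a13, Glrb, Ebf1 and Tgfb3 (0.97 to 0.98), and those most like Zeb2 were Btbd3, Dsel, Gpc6, Adgrl3 and Pogk (0.97 to 0.99). Twist1 was matched by Syde1, Chst2, Il1rl2, Epha3 and Irx1 (0.98), and Twist2 by Ccl7, Asap1, Sgsh, Slc36a4 and Irx1 (0.98 to 0.99), with Irx1 in both. Most opposite were Cdkn2aipnl, Snrnp40 and Ints13 to Snai1, Car2, Diaph1 and Nfe2l3 to Snai2, and Sp6, Zfp750 and Atg9b to Zeb1. Zfp750, an epidermal regulator, was 5.43 on day 0, 9.21 on day 15 and 6.98 in iPSC as a group mean, and Car2 (carbonic anhydrase 2) 4.62, 9.67 and 6.89. For Zeb2 the most opposite were Ranbp17, Vps54 and Chmp4c, for Twist1 Fmn2, Nrm and N4bp3, and for Twist2 Fut9, Nrm and Mfng (-0.97 to -0.99 for the genes named as opposite).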

How the data were processed

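Labelled total RNA of 18 samples in 9 groups of 2 was measured on Affymetrix arrays. The deposited values are log2 expression values that the authors made by RMA (per the submitters' processing notes). This method removes background, puts all arrays on 1 distribution and summarises probes, and thereby hides a shift common to most transcripts. Neither chip definition nor build is named; they were not given in the sources used. The table held 29643 probe sets with values from 2.12 to 13.7.

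Accessions were matched to RefSeq (GRCm38.p6) names: 27260 probe sets had 1 symbol, 0 several and 2383 none, giving 20233 genes, each represented by its probe set of highest mean. The 6 members, the 8 gene lists and 6 marker lists were chosen with earlier results of these data known. limma (version 3.58.1, R 4.3.3) fitted 9 group means to 18 arrays, leaving 9 residual degrees of freedom, moderated by 4.25 prior ones. Adjustment was by Benjamini-Hochberg within each comparison. The script was tested on simulated data. Named genes are the members, for each the 5 most like and 3 most opposite genes, the 4 called genes of each list that moved most on day 15, and a fixed set of partners. Of the genes so named, 1 is not reported here. Precision is limited by how few arrays there are, with a median SE of 0.0976 per log2 difference. Alternatives were median centring, another quantile normalization, the mean of probe sets, filters, the minimum fold, a replicate block and leaving out arrays. Same-numbered arrays of different groups correlated in their deviations at -0.19 to 0.15 over 36 pairs of groups, so the numbers were not taken to pair samples.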

Additional observations from a re-analysis of the deposited data

How the results depend on the processing

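Against day 0, the 41 calls among the 6 genes stayed at 40 to 41 when 1 array was left out. The direction of the 48 differences held in all alternatives run, and 3 single values crossed the limit, Twist1 and Twist2 on day 3, as given above. Between neighbouring groups the 8 calls became 22 with no minimum fold, 3 with a minimum log2 difference of 1.5, 5 without the day 18 arrays (which removes 2 comparisons, chosen after seeing the data) and 7 to 11 without 1 array. The 11 came without day 18 array 2. Against iPSC the 15 calls became 27 with no minimum fold and 13 to 16 without 1 array. With a replicate block the 3 counts were 41, 8 and 15, the same as without it, and no call of a list changed by over 1.5 times.

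With no minimum fold, the day 15 calls were 27 in the list of inducing signals, 18 in that of corepressors, 16 in that of stability regulators and 12 in that of bHLH genes. With a minimum of 1.5 these counts were 7, 0, 2 and 1. The corepressors gave 2 with another quantile normalization and 2 with median centring. Leaving out 1 array moved the day 15 change of Snai1 over Snai2 from 2.54 to between 2.21 and 2.87. The cause of these changes was not tested beyond the limits themselves. Low levels limit what can be said of Snai2 on day 15 and of the miR-200 genes.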
